A study of Pan troglodytes with 8 samples.

Results

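Chromatin regions were examined that carried a peak in apical radial glia, basal radial glia and neurons of chimpanzee cerebral organoids but none in the basal intermediate progenitors. A region was included, and is called a member here, when it overlapped by at least 1 bp an interval in the deposited consensus peak list of each of the 3 other populations and no interval in the list of the intermediate progenitors. This gave 1747 members among 211348 regions, or 0.827%. The members were chosen from the peak calls of these same libraries. Their low values in the intermediate progenitors are therefore a description and were not tested.

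The data are bulk ATAC-seq, in which a transposase cuts and tags open chromatin, so that a region's read count reflects how accessible it is. The cells were sorted by flow cytometry from organoids of 1 chimpanzee induced pluripotent stem cell line, SandraA, in week 8 of culture, with no genetic change or treatment named in the labels. The 4 populations were BCL11B+ neurons (N), basal intermediate progenitors (bIP), and the apical (aRG) and basal (bRG) kinds of radial glia, each with 2 libraries. The labels do not say whether libraries 1 and 2 came from separate cultures, so p-values measure only the spread between these libraries, which may be technical.

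Apical radial glia divide at the ventricle of the developing cortex and serve as its stem cells, and basal radial glia have left that lining while keeping a long fibre. Basal intermediate progenitors arise from radial glia, divide in the subventricular zone and mostly yield neurons. The members therefore lacked a peak in the cells that stand between radial glia and neurons in this sequence. Enhancers and promoters both appear as ATAC-seq peaks, and a peak call depends on the reads over local background as well as on the accessibility itself.

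Library totals lay between 24913928 and 34845193 counts, and those of bIP were 26083288 and 24913928. The peak lists held 84922 intervals for bIP and 85863, 89358 and 86389 for aRG, bRG and N. The lowest -log10 q-value in each list was 5.14 for bIP, 3.08 for aRG, 4.03 for bRG and 6.4 for N, so the lists did not end at the same strength. No member had a weakest peak below the bIP floor of 5.14, and the median of the members' weakest peaks was 55.4. The labelled cell types were checked at regions within 50 kb of the start of their marker genes, as scaled counts (CPM, counts relative to the library total) summed over regions. SOX2, a stem cell factor, had 114 ± 12.9 CPM in aRG, 103 ± 4.95 in bRG, 20.3 ± 2.18 in N and 52.7 ± 6.55 in bIP (SD, n = 2). EOMES, which defines intermediate progenitors, had 80.3 ± 1.34 CPM in bIP against 56.8 ± 1.42 in aRG, 47.2 ± 5.27 in bRG and 40.3 ± 10.3 in N. NEUROD2, a factor of newborn excitatory neurons, had 22.2 ± 2.84 CPM in aRG, 22.4 ± 1.34 in bRG, 149 ± 0.65 in N and 114 ± 10.3 in bIP. At BCL11B, the label gene of the neurons, regions had 64.8 ± 5.98 CPM in aRG, 59.3 ± 6.40 in bRG, 48.2 ± 4.35 in N and 70.1 ± 1.14 in bIP. At TBR1, a transcription factor gene of glutamatergic neurons, the values were 33.8 ± 3.98, 28.0 ± 0.675, 49.8 ± 2.43 and 72.1 ± 4.74 CPM in the same order. N was thus the lowest of the 4 populations at BCL11B, and bIP was above N at TBR1, so these loci did not mark the neurons.

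At the median, members were more accessible than all regions tested and less accessible than regions with a peak in all 4 populations. They kept a reduced signal in bIP. Their median accessibility was 3.29 and 3.28 CPM in the aRG libraries, 3.35 and 3.13 in the bRG libraries, and 3.35 and 3.73 in the N libraries. In the bIP libraries the median was 2.00 and 2.00 CPM, from a median of 55 and 52 reads per region. Both bIP medians thus lay under the 6 others, yet above the medians of all regions tested in bIP, which were 1.56 and 1.54 CPM. In bulk libraries, fewer open cells and less accessibility per cell cannot be told apart. With each region taken as its mean over libraries, the median was 3.33 CPM for the members and 1.86 for all regions tested. Regions with a peak in all 4 populations were far more accessible, with a median of 11.2 CPM.

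**Figure D1:**
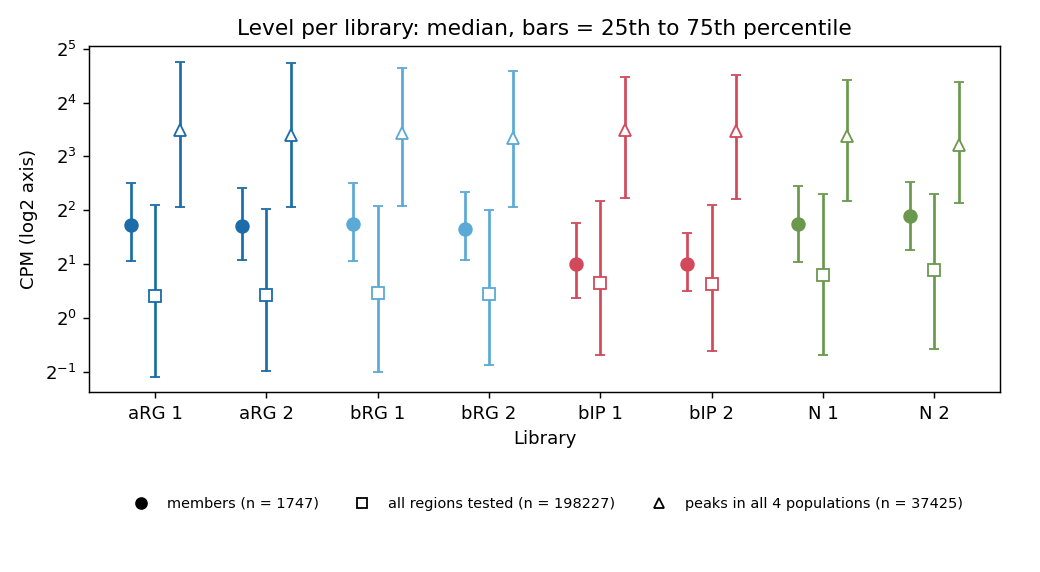
Accessibility (CPM, log axis) in each of the 8 libraries for the members and the comparison sets; points are medians and bars run from the 25th to the 75th percentile. The members' medians are 2.00 CPM in both bIP libraries and 3.13 to 3.73 in the other 6, with ranges that overlap.

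The absence of a peak did not always go with lower counts. Both bIP libraries lay below all 6 others at 791 members (45.3%). The same held at 4.72% of all regions tested and at 9.38% of the regions with a peak in all 4 populations. Both bIP libraries lay above all 6 others at 4 members (0.229%, against 10.8% of all regions tested), and the other 952 members showed neither order. A single bIP library lay below the 6 others at 318 members for bIP 1 alone and at 287 for bIP 2 alone. As a mean of its libraries, bIP was the lowest of the 4 populations at 1285 members (73.6%), the second lowest at 277, the second highest at 158 and the highest at 27. The name of skipped regions therefore describes the peak lists for all 1747 members, and the counts in both libraries for 791 of them. None of these shares was tested, because the rule used the bIP peaks of the same reads.

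The size of the drop was mostly modest. It is given as the gap, the mean log2 CPM of aRG, bRG and N minus that of bIP. The median gap was 0.71 on the log2 scale, with the middle 50% of members between 0.35 and 1.07 and a full range of -0.92 to 2.19. It exceeded 2-fold at 516 members (29.5%), and bIP was at or above the mean of the others at 115 (6.58%). The median gap was 0.10 both over all regions tested and over regions with a peak in all 4 populations. In edgeR's contrast of bIP with the mean of the others, 765 members were lower and 6 higher at an adjusted p under 0.05. Over all regions tested, 8.17% were lower and 18.2% were higher in that contrast, and nothing is read from the members' counts, since the choice of members fixed them.

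**Figure D2:**
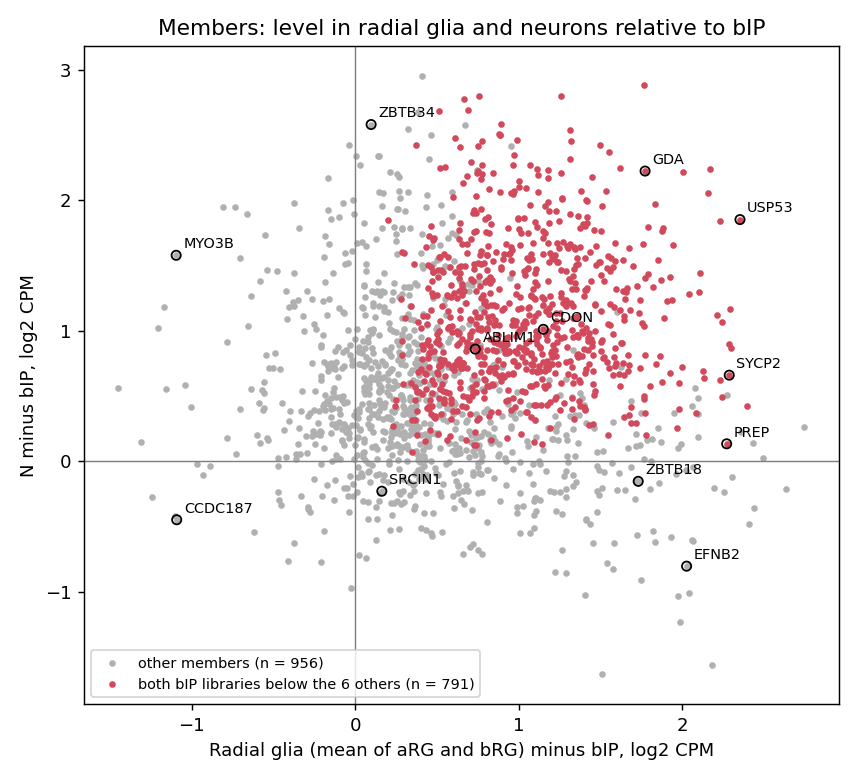
Each point is 1 of the 1747 members, placed by its radial glia mean minus bIP (horizontal, log2 CPM) and its N minus bIP (vertical, log2 CPM); red points are the 791 with both bIP libraries below the 6 others, and circled points are named. Most points lie in the upper right, where bIP is under both; 370 have bIP between radial glia and N, and 34 have bIP over both.

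At the median, the peaks on which the rule stands were weaker than those of regions with a peak in all 4 populations. Median -log10 q-values of the members' peaks were 66.8 in aRG, 85.9 in bRG and 93.9 in N, against 251, 307 and 276 for regions with a peak in all 4 populations. The nearest bIP interval lay a median of 9554 bp from a member, with the middle 50% between 3383 and 25551 bp. It lay within 1000 bp at 148 members. Members just inside the rule, with a bIP interval at most 500 bp away, numbered 58 and had median levels of 4.59 CPM in aRG, 4.70 in bRG, 4.93 in N and 3.38 in bIP. Regions just outside it, with at most 200 bp of a bIP interval inside them, numbered 21, of which 20 were tested, and had 4.31, 3.89, 4.17 and 3.07 CPM in the same order. The median gap was 0.44 just inside and 0.28 just outside, so the border of the rule ran through regions of similar accessibility.

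The neuronal peak did not always sit at the same place as the radial glia peak. The strongest summits of aRG and bRG lay a median of 8 bp apart, and 95.5% of members had them within 100 bp. Between aRG and N the median distance was 34 bp, with 1110 members (63.5%) within 100 bp and 416 (23.8%) more than 300 bp apart. In regions with a peak in all 4 populations the aRG and N summits lay a median of 14 bp apart, with 83.0% within 100 bp and 10.9% more than 300 bp apart. At 87 members the aRG, bRG and N intervals did not share a base at all. The other 1660 (95.0%) did, against 99.3% of the regions with a peak in all 4 populations. Members with summits more than 300 bp apart were wider, with a median of 1584 bp against 900 bp for those within 100 bp. Their gap was also larger, at a median of 0.88 against 0.59. A count over such a region does not separate the reads under its different summits.

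**Figure D3:**
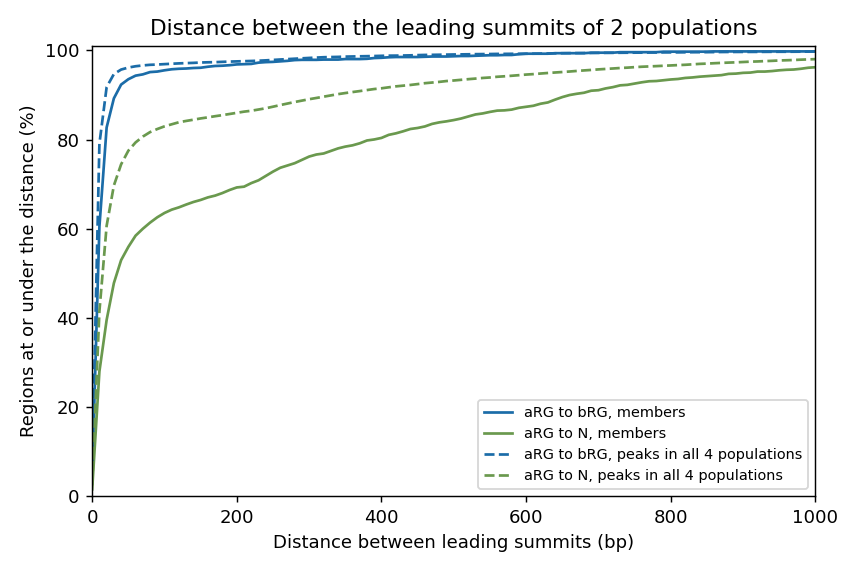
Cumulative share of regions (percent) by the distance between the strongest summits of 2 populations (bp), for the members and for regions with a peak in all 4 populations. The members' aRG to N curve lies lowest, reaching 63.5% at 100 bp, while their aRG to bRG curve reaches 95.5%.

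Radial glia and neurons were compared at the members with edgeR's quasi-likelihood test, adjusted by Benjamini-Hochberg over all 198227 regions tested. All 1747 members passed the filter on low counts, which reflects the required peaks. In N against aRG, 368 members were higher (21.1%), 300 were lower (17.2%) and 1079 did not pass. Over all regions tested, 37.2% were higher and 31.7% lower. Regions with a peak in all 4 populations had 17.9% and 32.7%. Requiring a peak in both populations limits how far they can differ, so the lower share of calls than among all regions is partly set by the rule. The members' median log2 fold change was 0.09, with the middle 50% between -0.49 and 0.64. Leaving out aRG 1 reduced the count of higher members to 234, and leaving out aRG 2 reduced it to 228. The share of all regions called higher also fell, to 31.7% and 31.5%.

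Which side prevailed depended on the scaling. Of the members called in N against aRG, 55.1% were higher with TMM, 47.0% with DESeq2 size factors, 36.1% with upper-quartile scaling and 62.9% with plain library totals. These scalings moved the median of all regions by -0.10, -0.23 and 0.12 relative to TMM. For N against bRG, 364 members were higher and 280 lower with TMM, beside 37.5% and 30.4% of all regions tested. The count of higher members was 235 without bRG 1 and 200 without bRG 2, where 31.1% and 32.2% of all regions were higher. The share of higher among the called was 56.5% with TMM, 46.8% with DESeq2 size factors, 36.5% with upper-quartile scaling and 58.9% with library totals. The 2 comparisons share the N libraries.

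No difference between apical and basal radial glia was called at the members. In bRG against aRG, edgeR called 0 of 1747 members, with 6 at an unadjusted p under 0.05, and DESeq2 called 0, with 3 unadjusted. The background was also 0, that is 0% of all regions tested, with 5232 at an unadjusted p under 0.05. All 1747 members differed by less than 2-fold between the 2 kinds of radial glia, and their median log2 fold change was -0.02. The difference was also under 2-fold at 96.5% of all regions tested and at 100% of regions with a peak in all 4 populations. This was thus not particular to the members, and the rule required a peak in both kinds. A p-value that misses the threshold does not show that the 2 kinds were equal.

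The position of bIP differed with the side on which a member was called. At the 368 members higher in N than in aRG, median levels were 2.52 CPM in aRG, 2.62 in bRG, 6.39 in N and 2.08 in bIP, so bIP lay nearest to radial glia. At the 300 members lower in N, medians were 8.14 CPM in aRG, 7.44 in bRG, 3.05 in N and 2.81 in bIP, so bIP lay nearest to neurons. At the 1079 members not called, medians in that order were 3.07, 3.06, 3.12 and 1.82 CPM, and bIP lay under both the radial glia mean and N at 911 of them (84.4%). A dip in both directions was thus most frequent where radial glia and neurons had similar levels. Both bIP libraries lay below all 6 others at 551 (51.1%) of these uncalled members, at 136 (37.0%) of those higher in N and at 104 (34.7%) of those lower in N. These are descriptions, since the same aRG and N values define the classes and enter the gap. The rule also asked for no bIP peak, which favours a low bIP level in every class.

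**Figure D4:**
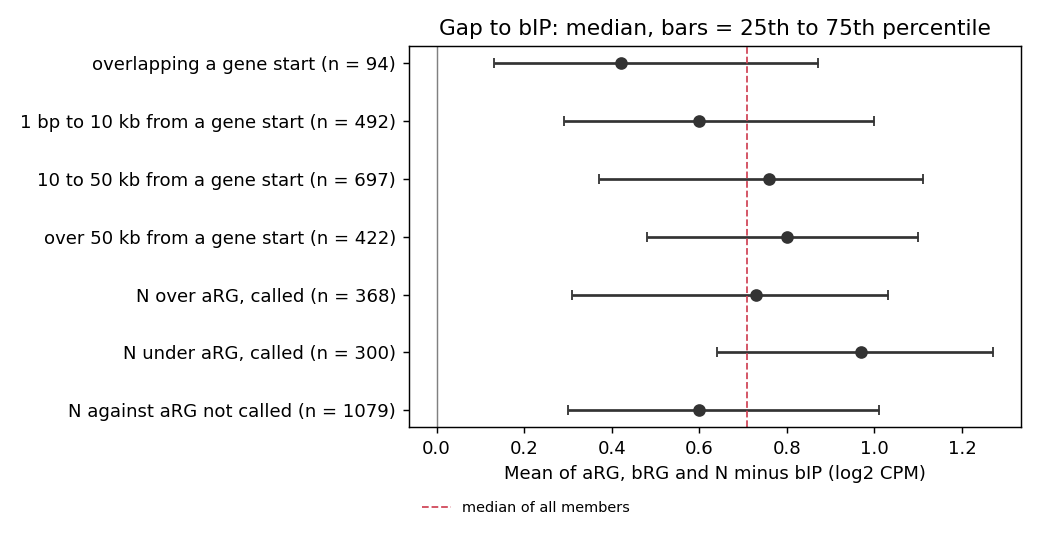
Gap between the mean of aRG, bRG and N and bIP (log2 CPM) for members split by distance to the nearest gene start and by their call in N against aRG; points are medians, bars run from the 25th to the 75th percentile and the dashed line is the median of all members, 0.71. The gap is smallest at gene starts, 0.42, and largest at members lower in N than in aRG, 0.97.

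Members lay mostly away from gene starts. Of 1705 members with a distance, 94 (5.51%) overlapped the start of their closest gene. So did 7.89% of all regions and 33.5% of regions with a peak in all 4 populations. For regions with a peak in all populations but N the share was 5.74%. It was 3.2% for all but bRG and 3.62% for all but aRG. The members' median distance was 19805 bp, close to the 20283 bp of all regions, and 422 members (24.8%) lay more than 50 kb from the closest gene start. The closest gene was protein-coding at 459 members (26.3%), against 27.7% of all regions. Their median width was 1079 bp, between 858 bp for all regions and 1340 bp for regions with a peak in all 4 populations. Regions with a peak in all populations but N, bRG or aRG had median widths of 1095, 1042 and 1054 bp, in that order. A low share at gene starts and this width were thus not particular to the members.

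The few members at gene starts had the smallest gap. Its median was 0.42 at the 94 members overlapping a gene start and 27 of them (28.7%) had both bIP libraries below the rest. It was 0.60 at 1 bp to 10 kb, 0.76 at 10 to 50 kb and 0.80 beyond 50 kb. At the 41 members that overlapped the start of a protein-coding gene the median gap was 0.38, and 10 had both bIP libraries lowest. The order was the opposite among regions with a peak in all 4 populations, where the median gap was 0.14 at 12253 regions on a gene start and 0.02 at the other 24308.

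The members were spread over the genome. On the chromosomes with at least 1000 regions, which held 1740 members, the share of regions that were members ran from 0.478% on chromosome 19, 0.532% on chromosome 17 and 0.597% on chromosome 21 to 1.01% on chromosome 10 and 1.07% on chromosome 12. The median distance from a member to the next was 929 kb, and 87 neighbouring pairs lay within 50 kb of each other. Matching identifiers in human, chimpanzee and gorilla were present for 1642 members (94.0%), against 94.1% of all regions. A human identifier was missing at 42 (2.4%, against 1.51% of all regions). Their median gap was 0.49, against 0.74 at members present in all 3 species, and their median level was lower, at 1.93 against 3.37 CPM.

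The members with the widest gaps were taken from those within 50 kb of a protein-coding gene start and with both bIP libraries lowest. The gap was largest at a member 31736 bp from USP53, a gene of the ubiquitin-specific protease family, at chr4:116634185-116635055 (panTro6, as are all coordinates here). Accessibility there was 2.55 and 4.75 CPM in aRG, 3.00 and 3.74 in bRG, 0.509 and 0.729 in bIP, and 2.05 and 2.79 in N. Both bIP libraries lay under every other library, and the mean of the others was 4.56-fold the bIP level, chosen as the largest. The aRG and N summits of this member lay 493 bp apart in a region of 871 bp, so its counts do not separate them. Next came a member 3999 bp from GDA, which encodes the guanine deaminase cypin, at chr9:54423814-54424945. It had 5.13 and 6.17 CPM in aRG, 3.97 and 4.69 in bRG, 1.20 and 1.61 in bIP, and 5.74 and 7.97 in N. N and radial glia overlapped there, and the N against aRG difference did not pass (log2 fold change 0.28 ± 0.29 SE, adjusted p = 0.4 in edgeR).

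Another member, 6888 bp from GCA, which encodes the calcium-binding protein grancalcin, lay at chr2B:48913783-48914725. It had 2.98 and 2.73 CPM in aRG, 3.27 and 3.13 in bRG, 0.909 and 1.15 in bIP, and 4.53 and 7.46 in N. Both N libraries were highest and both bIP libraries lowest, and N was above aRG by 1.07 ± 0.31 (log2, SE, adjusted p = 0.0081 in edgeR). That call ended without aRG 2 (adjusted p = 0.059) and without N 2 (0.094). At SYCP2, a gene of the synaptonemal complex of meiosis, a member 14499 bp away had 8.81 and 7.81 CPM in aRG, 8.62 and 10.3 in bRG, 1.45 and 2.11 in bIP, and 2.55 and 3.10 in N. Here bIP and N were both low, and N fell by 1.56 ± 0.28 relative to aRG (log2, SE, adjusted p = 0.00033). The 8 members that followed were nearest to ZFP42, ADAM28, PGAP1, BANF2, PREP, TAMM41, CLCA1 and MUCL3, with gaps of 1.71 down to 1.51.

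At PREP, the gene of a prolyl endopeptidase that cuts short peptides, the member overlapped a gene start, at chr6:102850763-102852657. Its levels were 11.6 and 10.4 CPM in aRG, 8.47 and 9.76 in bRG, 2.11 and 1.92 in bIP, and 2.27 and 2.16 in N. Radial glia stood clear of both other populations, and N was lower than aRG by a log2 fold change of -2.31 ± 0.26 (SE, adjusted p = 7.8e-06). The aRG and N summits of this member lay 794 bp apart within the region, so the strongest points of the 2 peaks did not coincide.

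At the other end of the gap were members with more signal in bIP than the mean of the others. Among members within 50 kb of a protein-coding gene start, the lowest lay 859 bp from CCDC187, with 2.55 and 1.89 CPM in aRG, 3.09 and 2.45 in bRG, 5.85 and 4.84 in bIP, and 4.50 and 3.34 in N. Both bIP libraries were the highest of the 8 although no bIP peak was listed there, and the gap was -0.88. Gaps near PLAC9, UBE3B and PRDM11 were -0.59, -0.53 and -0.47. The PLAC9 member differed between the bIP libraries, at 8.83 CPM in bIP 1 and 2.96 in bIP 2, and without bIP 1 the contrast of bIP with the others turned from 0.77 to -0.23.

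Of the 6 most accessible members on a protein-coding gene start, 5 had gaps between -0.13 and 0.13. SRCIN1 encodes a synaptic adaptor that restrains the kinase SRC, and its member had 23.8 and 20.4 CPM in aRG, 23.7 and 20.2 in bRG, 19.4 and 19.8 in bIP, and 17.0 and 16.5 in N. The bIP libraries lay between radial glia and neurons. N was lower than aRG by a log2 fold change of -0.40 ± 0.15 (SE, adjusted p = 0.026), a call that ended without aRG 1, without N 2 and with library totals. ZBTB46, a zinc-finger factor known from dendritic cells, had 15.5 and 14.6 CPM in aRG, 15.5 and 14.3 in bRG, 13.3 and 17.1 in bIP, and 15.6 and 14.8 in N, with no order among the populations. Its gap was 0.00 and its nearest bIP interval lay 2501 bp away. INSYN1, a protein of inhibitory synapses, had a gap of 0.04, NECAB2, a neuronal calcium-binding protein, had -0.13, and SEMA4A, a membrane semaphorin, had 0.13. SEMA4A was higher in N than in aRG (1.01 ± 0.28, adjusted p = 0.0062), but not past the threshold without aRG 2 (0.06) or without N 1 (0.051). At ZBTB46, INSYN1, NECAB2 and SEMA4A the bIP counts overlapped those of other populations although no bIP peak was listed. The aRG and N summits lay 1587 bp apart in the 2405 bp of the ZBTB46 member. They lay 1112 bp apart in the 2569 bp of the INSYN1 member, so these counts do not separate the summits. At NECAB2 and SEMA4A the summits lay 0 and 5 bp apart. DIPK1C differed, with a gap of 0.52. It had 7.56 and 9.37 CPM in bIP, 7.42 and 8.72 in N, 15.3 and 14.7 in aRG and 14.2 and 14.9 in bRG, so bIP and N were low together.

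Few marker and pathway genes had a member near them, as did few protein-coding genes in general. Of 516 measured genes on 27 lists, 20 (3.88%) had a member within 50 kb, beside 339 of 14187 protein-coding genes (2.39%). The basal radial glia list had 2 genes of 17 (PEA15 and SLCO1C1) and the apical radial glia list 2 of 12 (PARD3 and PARD6B). The intermediate progenitor list had 1 of 21, which was MFNG. The pan-neuronal list had 0 of 24, the shared radial glia list 0 of 20, the synapse list 0 of 27, the Wnt list 0 of 27, the FGF list 0 of 21 and the cell cycle list 0 of 23. Of the lists of cells that should not be in these sorts, the vascular, mesenchymal and microglial one had 2 genes of 16 (CDH5 and LUM), the astrocyte and oligodendrocyte one 0 of 15, and the choroid plexus and hem one 0 of 14. Inhibitory neuron genes had 1 of 19 (SST) and pluripotency genes 1 of 9 (ZFP42). None of these counts was tested, and the shares per gene do not allow for the number of regions near each gene. The 14187 protein-coding genes had 47692 regions within 50 kb, of which 348 were members. The 17 basal radial glia genes had 123 regions and the 12 apical ones had 95. The 16 vascular, mesenchymal and microglial genes had 48.

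The 20 list genes had 22 members, and the most accessible was taken for each gene. Of these 20 members, 12 had both bIP libraries below all others and 8 did not, and their gaps ran from -0.41 to 1.71. In N against aRG, 2 were higher, 5 were lower and 13 did not pass, beside 37.2% higher and 31.7% lower over all regions tested. The lower calls of PEA15, SST and SMAD6 ended without aRG 1, which left 2 lower. They covered ligands, receptors, polarity proteins, transcription factors and matrix genes, described here in that order.

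EFNB2 encodes ephrin-B2, a membrane ligand for Eph receptors that guides axons and separates cell groups. Its member lay 4828 bp from the gene start at chr13:87752813-87754504 and was the most accessible near a list gene. It had 80.5 and 104 CPM in aRG, 67.8 and 92.4 in bRG, 14.8 and 29.4 in bIP, and 11.7 and 12.1 in N. Both bIP libraries were above both N libraries and under all radial glia, so the level fell stepwise although N had a peak and bIP had none. The difference of N from aRG was -2.96 ± 0.26 (log2, SE, adjusted p = 1.1e-06 in edgeR). Its aRG and N summits lay 1108 bp apart in a region of 1692 bp, and the nearest bIP interval lay 947 bp away.

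Receptors and signalling proteins among the list genes were CDON, NRP2, SMAD6, WWTR1 and MFNG. CDON is a co-receptor of the Hedgehog pathway, and its member, 8987 bp away at chr11:121813689-121814684, had 8.62 and 6.26 CPM in aRG, 8.15 and 7.55 in bRG, 3.67 and 3.11 in bIP, and 6.52 and 7.27 in N. The bIP libraries lay clear of the other 6, which overlapped among themselves, with a gap of 1.10 and an N against aRG difference of -0.11 ± 0.26 (adjusted p = 0.72). Among the 339 protein-coding genes with a member within 50 kb, CDON was 1 of 9 with 2 members, and no gene had more. FRMD4B, on the upper-layer neuron list, also had 2. NRP2, a receptor for class 3 semaphorins, had 2.55 and 2.81 CPM in aRG, 3.24 and 2.72 in bRG, 1.96 and 2.00 in bIP, and 3.73 and 3.85 in N. SMAD6, an inhibitor of BMP signalling within the cell, had a gap of 1.04 and WWTR1, the Hippo effector TAZ, had 0.79, both with bIP lowest in each library. MFNG, which adds sugars to Notch receptors, was the exception with a gap of -0.41, at 4.03 and 2.46 CPM in bIP and 2.27 and 2.35 in aRG. Its bIP libraries differed, and without bIP 1 the contrast of bIP with the others was 0.03.

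The cell shape and polarity genes gave both kinds of pattern. ABLIM1, an actin-binding LIM protein, had a member at chr10:110536540-110537586 with 7.21 and 7.56 CPM in aRG, 6.62 and 6.80 in bRG, 4.14 and 4.26 in bIP, and 7.95 and 7.42 in N. This was a clean dip, with close replicates and N against aRG at 0.06 ± 0.24 (log2, SE, adjusted p = 0.84). PALMD, the membrane-associated protein palmdelphin, had a gap of 1.04. PARD6B and PARD3 belong to the complex that sets the apical pole of radial glia. PARD6B had 4.58 and 4.34 CPM in bIP and between 5.37 and 7.50 in the others, a gap of 0.48. PARD3 had 3.82 and 2.03 CPM in bIP against 2.43 and 2.14 in aRG and 5.93 and 5.46 in N, so bIP overlapped with aRG, and N was higher than aRG by 1.32 ± 0.32 (adjusted p = 0.0029). At PCDH8, a protocadherin, bIP also overlapped with aRG and N was higher than aRG. It had 1.96 and 1.42 CPM in bIP, 1.57 and 1.89 in aRG and 5.81 and 7.50 in N (1.94 ± 0.34, adjusted p = 0.00026).

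Among transcription factors, ZBTB18, a repressor needed for cortical neuron development, had a member 38365 bp from its start with 13.4 and 14.4 CPM in aRG, 10.7 and 14.1 in bRG, 3.05 and 4.91 in bIP, and 3.17 and 3.81 in N. The bIP libraries spanned those of N, and N was lower than aRG by a log2 fold change of -2.00 ± 0.28 (SE, adjusted p = 4.4e-05). SOX5, a factor of deep-layer neurons, had 2.14 and 2.92 CPM in bIP and 3.17 to 4.32 in the others. Matrix and vessel genes included LUM, the matrix proteoglycan lumican, whose member overlapped the gene start and had 1.16 and 1.77 CPM in bIP against 2.30 to 4.07 elsewhere. CDH5, the cadherin of endothelial cells, had a gap of 0.61. SST, the neuropeptide somatostatin, had a member on its start with 3.05 and 2.07 CPM in bIP, 2.64 and 2.40 in N and 4.39 and 4.79 in aRG. Its lower level in N (-0.86 ± 0.30, adjusted p = 0.022) lost its call without aRG 1, aRG 2 or N 2.

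**Figure D5:**
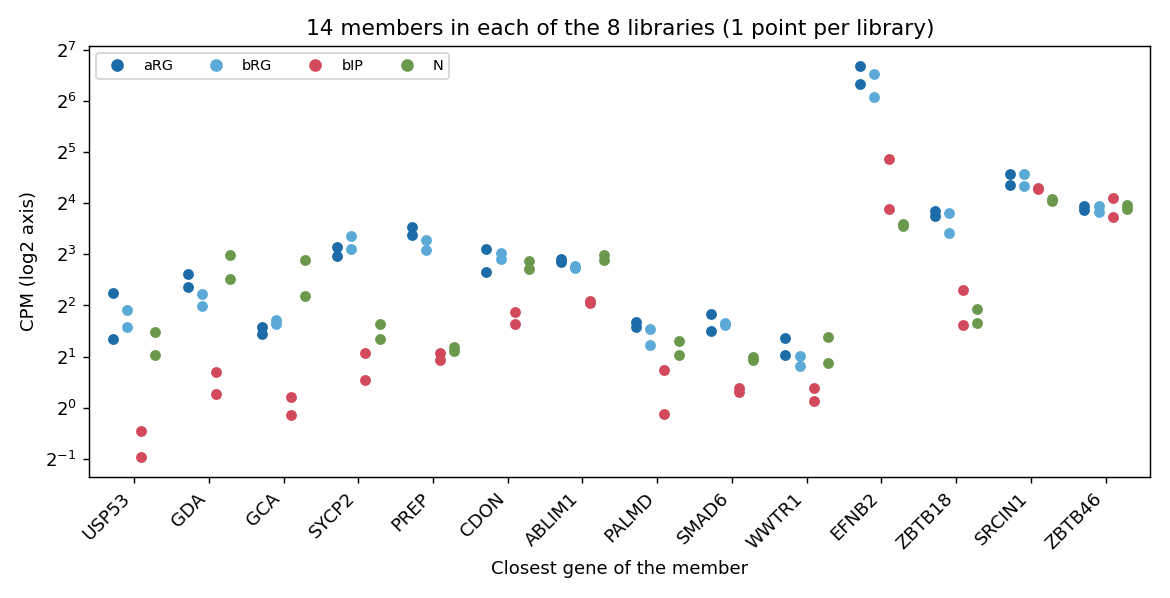
Accessibility (CPM, log axis) in each library for 14 members, by closest gene, with 1 point per library and colours by population. At USP53, GDA, CDON and ABLIM1 both bIP points lie under the 6 others. At PREP bIP lies close to N, and at EFNB2 it lies between radial glia and N.

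Among members within 50 kb of a protein-coding gene start, the 4 highest and the 4 lowest called N against aRG values were examined. At these 8, bIP lay nearer to the lower of those populations. The rule asked for no bIP peak, which favours that position, so it is only a description. MYO3B, an unconventional myosin with a kinase domain, had 2.12 and 1.97 CPM in aRG, 2.53 and 1.80 in bRG, 6.25 and 3.30 in bIP, and 13.1 and 14.4 in N, a rise of 2.75 ± 0.34 (log2, SE, adjusted p = 1.6e-05). ZBTB34, a zinc-finger gene, had 2.86 and 2.60 CPM in aRG, 3.09 and 1.88 in bIP and 13.0 and 16.9 in N (2.45 ± 0.30, adjusted p = 1.6e-05). GPRIN1, a regulator of neurite outgrowth, and LRRN1, a leucine-rich repeat neuronal protein, rose by 2.10 and 2.06. At MYO3B both bIP libraries exceeded radial glia, whereas at ZBTB34 they overlapped with it. TLR1, an innate immune receptor, and EQTN, a sperm acrosome gene, had N against aRG differences of -2.21 and -2.05, below those of EFNB2 and PREP in size. In the EQTN member bIP had 5.60 and 7.33 CPM, N had 4.53 and 4.79 and aRG had 20.5 and 18.1.

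Of the members with no human identifier, the most accessible lay at chr5:155906047-155907274. It had 4.62 and 2.81 CPM in aRG, 6.21 and 3.16 in bRG, 17.2 and 5.07 in bIP, and 26.1 and 13.8 in N. Library 1 was higher than library 2 in every population there, and without bIP 1 the contrast of bIP with the others turned from 0.66 to -0.47. At chr1:112021549-112022467 a clear dip was seen, with 2.73 and 3.80 CPM in bIP against 9.09 and 11.6 in aRG, 9.42 and 9.56 in bRG, and 6.43 and 10.4 in N. Its nearest bIP interval lay 305 bp away. The next member lay at chr1:107874646-107875472. It had 6.74 and 7.27 CPM in aRG, 7.41 and 8.10 in bRG, 4.83 and 5.07 in bIP, and 11.3 and 10.9 in N. The aRG and N summits there lay 559 bp apart in 827 bp, and a bIP interval lay 171 bp away. N was above aRG by 0.67 ± 0.23 (log2, SE, adjusted p = 0.02 in edgeR). That call ended in several fits, upper-quartile scaling among them.

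Regions around the members were tested on their own, since the rule did not choose them. It did leave out of this set every region with the members' own peak pattern. The shares over all regions still include the members. The 1658 non-member regions that shared a member's closest protein-coding gene, at most 50 kb away, were lower in bIP than the mean of the others at 140 (8.44%, against 8.17% of all regions tested) and higher at 290 (17.5%, against 18.2%), by edgeR's quasi-likelihood test. These shares were near the background, with a median log2 fold change of -0.10 against -0.09 over all regions. Of these regions, 728 (43.9%) had a bIP peak, beside 79026 of all 211348 regions, tested or not. The nearest non-member region on each side of a member, whatever its gene, was lower at 315 of 3257 (9.67%) and higher at 469 (14.4%), with a median of -0.16. Calls in bIP depended on its first library. Without bIP 1, the regions of the same gene were lower at 31 (1.83%, beside 1.74% of all regions) and higher at 178 (10.5%, beside 11.2%), and the nearest regions on each side were lower at 80 (2.39%) and higher at 307 (9.19%). With 1 library in bIP, its spread is assumed to be that of the other populations. The count of lower regions of the same gene was also 88 without aRG 1 (5.22%, beside 5.23% of all regions) and 87 without bRG 1 (5.16%, beside 5.26%). The regions of the same gene thus had shares of calls near the background in these fits. Those next to a member were called lower somewhat more often and higher less often than all regions, a difference that was not tested.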

How the data were processed

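The authors deposited a table of raw counts (1 row per region, 1 column for each of the 8 libraries) and 1 consensus peak list per population, per the file headers. The peak lists also hold, as deposited, a score, a fold enrichment (a ratio) and -log10 p- and q-values, of which only intervals, summits and -log10 q-values were used. MACS2, bcl2fastq 2.20.0 and the builds panTro6 and hg38 appear in the submitters' processing notes. The aligner was not given in the sources used here, nor was the way libraries were combined into 1 list.

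The table had 218080 regions, from which 6725 without a chimpanzee identifier (total count 0) and 7 repeats were left out. Counts were fitted with edgeR 4.0.16 (TMM, filterByExpr, robust quasi-likelihood, population as the only term, all 8 libraries), which kept 198227 regions. Residual degrees of freedom were 4, and the common biological coefficient of variation was 0.216. Calls used a Benjamini-Hochberg adjusted p under 0.05 over all regions tested. CPM used TMM-scaled library totals, with a prior count of 2 on the log2 scale. The pipeline was tested on simulated counts. Alternatives were other scalings, DESeq2 1.42.0, no filter, a replicate block, only the 2 populations compared, stricter peaks and leaving out each library.

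Distances pointed to 1 position per gene, within 2 bp, in 99.9% of 40737 regions in hg38 coordinates. They were read as distances to gene starts. Their build is not stated. Protein-coding genes were recognised by symbol in a RefSeq table of NHGRI_mPanTro3-v2.0. No sequence is printed.

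The members, gene lists and rules for naming were chosen with earlier results of these data known. Named, with 1 member per gene within 50 kb of a coding start, were the 12 widest gaps with both bIP libraries lowest, the 4 smallest gaps, the 6 most accessible at a gene start, those near list genes, the 4 highest and 4 lowest called in N against aRG, and the 3 most accessible without a human identifier.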

Additional observations from a re-analysis of the deposited data

How the results depend on the processing

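Counts of members by call were recomputed under 15 alternatives. Over libraries left out in turn, the count of members higher in N than in aRG ran from 228 to 370 (368 with all 8), and that for N over bRG from 200 to 367 (364). The share of all regions called higher was also lower whenever a library was left out, so falls in these counts were not particular to the members. Upper-quartile scaling gave 241 for N over bRG, where 33.5% of all regions tested were higher, against 37.5% with TMM. For non-member regions of the same gene, leaving out a library gave 31 to 151 lower in bIP (140) and 178 to 309 higher (290); for the nearest regions on each side it gave 80 to 335 lower (315) and 307 to 503 higher (469). In each of these leave-out fits, the share of all regions called moved in the same direction as the counts of both sets. Library totals in place of TMM gave 88 lower regions of the same gene (5.31%, beside 5.65% of all regions). The members' median gap was then 0.61, beside 0.0 over all regions, against 0.71 and 0.10 with TMM. Both bIP libraries lay below all others at 459 members when only those with aRG and N summits within 100 bp were counted, a smaller set by construction, and at 745 when the intervals had to share a base. These 2 subsets and the library totals were chosen after seeing the data. With a replicate block, 232 regions of the same gene (14.0%) and 531 on each side (16.3%) were lower in bIP, beside 13.4% of all regions, and 445 and 380 members were higher and lower in N against aRG, beside 39.2% and 33.8%. Same-numbered libraries varied together (correlations of deviations 0.12 to 0.31 over all regions and 0.19 to 0.65 over the members), but the labels do not say that a number marks a shared batch. Among 750 alternative values of N against aRG at the named members, 693 kept their side of the threshold, 50 lost a call, 7 gained one and 0 changed direction. Lower bIP calls rest most on bIP 1, and a median of 52 to 55 bIP reads per member limits single regions.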
